A study of Mus musculus with 6 samples.

Results

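The subunit genes of the 3 nuclear RNA polymerases were examined in naïve CD4 T cells that lack the cap methyltransferase RNMT. The members were all genes in the study's own gene comparison table whose mouse symbol begins with Polr1, Polr2 or Polr3, apart from 2 symbols that are not used here. This rule gave 26 genes out of 46983 in the count tables, on 17 chromosomes, and it used no measured value beyond the study's expression filter. They were sorted by the known make-up of the complexes. 2 genes (Polr1a and Polr1e) encode subunits found only in RNA polymerase I (Pol I), 8 only in Pol II (Polr2a, Polr2b, Polr2c, Polr2d, Polr2g, Polr2i, Polr2j and Polr2m) and 9 only in Pol III (Polr3a, Polr3b, Polr3c, Polr3d, Polr3e, Polr3f, Polr3g, Polr3gl and Polr3k). A further 2 (Polr1c and Polr1d) belong to both Pol I and Pol III, and 5 (Polr2e, Polr2f, Polr2h, Polr2k and Polr2l) are shared by all 3 enzymes.

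Pol I transcribes the large ribosomal RNA precursor, Pol II makes messenger RNA and many non-coding RNAs, and Pol III makes transfer RNA, the 5S ribosomal RNA and other short RNAs. Each enzyme is built around a pair of large catalytic subunits and a common core of small subunits, to which each adds its own stalk and initiation subunits. RNMT methylates the cap guanosine placed at the start of Pol II transcripts, so the mRNAs of all the subunits, including those of Pol I and Pol III, are made by Pol II and capped.

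Total RNA, depleted of ribosomal RNA, was sequenced from 3 control and 3 Rnmt cKO samples of naïve CD4 T cells, sorted from lymph nodes of male mice as TCRb+, CD4+, CD62L+, CD44- cells. Control mice were Rnmt fl/fl without Cre. Rnmt cKO mice were Rnmt fl/fl CD4cre, in which Cre driven by Cd4 regulatory sequence removes exon 3 of Rnmt from the double positive stage of thymic development. Both groups therefore carried the floxed alleles, and the effect of the Cre transgene cannot be told apart from that of losing Rnmt. The ages of the mice are not given in the sources used here.

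The 6 libraries held between 8873413 and 11277764 counts in genes. Reads of Rnmt itself, counted over the whole gene, were 438, 588 and 524 in the controls and 397, 444 and 297 in the Rnmt cKO libraries, which fell from 56.0 ± 3.94 to 35.3 ± 7.88 CPM (counts relative to the library total, scaled by TMM; SD, n = 3 in each group; log2 fold change -0.67, adjusted p = 0.00035, edgeR exact test). The share of uniquely mapped reads that fell outside annotated exons on the transcript's strand was uneven. These are called reads outside exons below, and they can include reads in introns. The share was 36.1, 39.7 and 46.1% in controls 1 to 3 and 47.9, 46.5 and 31.8% in Rnmt cKO 1 to 3, so Rnmt cKO 3 stood with controls 1 and 2. The summed level of genes of dividing cells was higher in every Rnmt cKO library (299 ± 15.7 against 618 ± 30.4 CPM; 13 of 15 listed genes passed the test). B cell markers were also higher (46.4 ± 4.46 against 75.4 ± 20.6 CPM; 5 of 8 passed), the summed T cell markers were 5101 ± 214 against 5650 ± 394 CPM, and CD8 T cell markers were lower (22.7 ± 0.884 against 14.8 ± 2.16 CPM; 2 of 2 passed). Of 7 myeloid markers 3 were detected well enough to test. Lyz2 passed as higher (2.75 ± 0.658 against 8.31 ± 4.80 CPM, adjusted p = 0.0012), Itgam did not pass but did not overlap, and Cst3, the most abundant, overlapped, as did their summed level (24.3 ± 3.09 against 30.5 ± 4.32 CPM). No listed marker was at 0 in all libraries. These levels moved with the groups, and their part in the values given for the polymerase genes was not tested. In bulk RNA of this kind, fewer cells of a type and less RNA per cell cannot be told apart.

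The bases at the start of an mRNA lie next to the cap that RNMT methylates, so the starts of 4 of the 5 members with the largest log2 fold changes are shown; the other, Polr2d, has no entry in the RefSeq table. Each sequence runs from 10 bases before the RefSeq start to the 20 bases that begin with it, in build GRCm38.p6, with the first 5 transcribed bases in capitals.
Polr2m, upstream start, chr9:71485964-71485993, minus strand: ctcgggcgtcCCCTCgtcctggcctgtccg
Polr2i, chr7:30232064-30232093, plus strand: ggatgacatcGCGCAtcatagtcccagccc
Polr1c, chr17:46248026-46248055, minus strand: aagatctcgcGACATtcaagattgcgggag
Polr3gl, chr3:96594162-96594191, minus strand: cccaccaatgGAGAGctcggggaggcgggc
Polr3e, chr7:120917768-120917797, plus strand: cggccccgctCCCCCcacgtgtccggcgga
Polr3e is shown because it and the upstream start of Polr2m were the 2 of 23 member starts (from 21 members with an entry) that open with C and 4 further pyrimidines, on the transcribed strand. That is 8.70% of the member starts, against 2.51% of all 32851 starts in the RefSeq table. A C as the first base was found at 5 member starts (21.7%, against 16.3% of all starts). Such a pyrimidine run within 10 bases of the start was found at 7 (30.4%, against 25.5%). The downstream start of Polr2m, chr9:71484939-71484968, opens with A and has no such run within 10 bases. The upstream window lies beyond the annotated gene, which reaches 71485935. Which start of Polr2m these cells used was not tested. Among the 5 genes printed, the pair with the pyrimidine starts differed in direction between the groups, and the other 3, which begin with G, did too. A match is a description of the letters in this window only.

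All 26 genes were expressed, as the study's expression filter on its gene comparison table required. Each exceeded 1 CPM in all 6 libraries, with between 56 and 2048 counts per library, and in the controls they lay between the 26.7th and the 91.8th percentile of the 12336 genes tested. Per length of exon, in reads per kilobase and per unit of library depth (RPKM, from TMM-scaled counts), the control levels spanned 8.60-fold. The median level in controls was 28.9 RPKM for the 8 Pol II subunits, 13.5 for the 9 Pol III subunits and 11.6 for the 2 Pol I subunits. It was 24.1 for the pair shared by Pol I and Pol III and 17.1 for the 5 subunits common to all 3 enzymes. The summed RPKM of the Pol III subunits was 0.634 ± 0.0340 of that of the Pol II subunits in controls and 0.594 ± 0.0813 in Rnmt cKO (SD, n = 3), and the groups overlapped.

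The highest level in controls was that of Polr2e, a small subunit of all 3 enzymes, at 38.0 ± 5.86 RPKM, followed by Polr2g, which forms the Pol II stalk with Polr2d, at 37.6 ± 1.26. Next came Polr2m (31.9 ± 3.21), Polr2j (31.8 ± 1.2) and the second largest Pol II subunit, Polr2b (30.8 ± 0.806). The lowest levels were those of Polr2l (4.42 ± 0.711) and Polr3g (4.49 ± 0.642). Of the 25 pairs of neighbours in this order, 22 had control ranges that overlapped, so the order does not resolve single ranks. Neighbours did not overlap after Polr2g, after Polr2f (21.8 ± 3.78, ahead of Polr3b at 17.4 ± 0.563) and after Polr2c (6.74 ± 0.833). Only the step after Polr2c parted all genes above it from all below. Across the step after Polr2g, the range of Polr2e (32.5 to 44.2) overlapped that of Polr2m (28.3 to 34.5). Across the step after Polr2f, its range (18.7 to 26.0) overlapped that of Polr2h (15.4 to 20.35).

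Levels of subunits that sit in 1 complex were not equal. Polr2g exceeded its stalk partner Polr2d (12.9 ± 1.87 RPKM), and Polr2j exceeded Polr2c (6.74 ± 0.833 RPKM), with which it pairs in the assembly of Pol II. The catalytic partners were closer: the ratio of Polr2a to Polr2b was 0.877 ± 0.0948 in controls and that of Polr3a to Polr3b was 0.779 ± 0.0779. The level per length depends on the transcript taken as the gene's length: with the longest transcript in place of all exons Polr1d, whose exons hold 2221 bases against 1196 in that transcript, moved from rank 9 to rank 1. Across the 26 genes the level had a Spearman rho of -0.22 with exon length (a description across genes, which are not replicates).

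**Figure D1:**
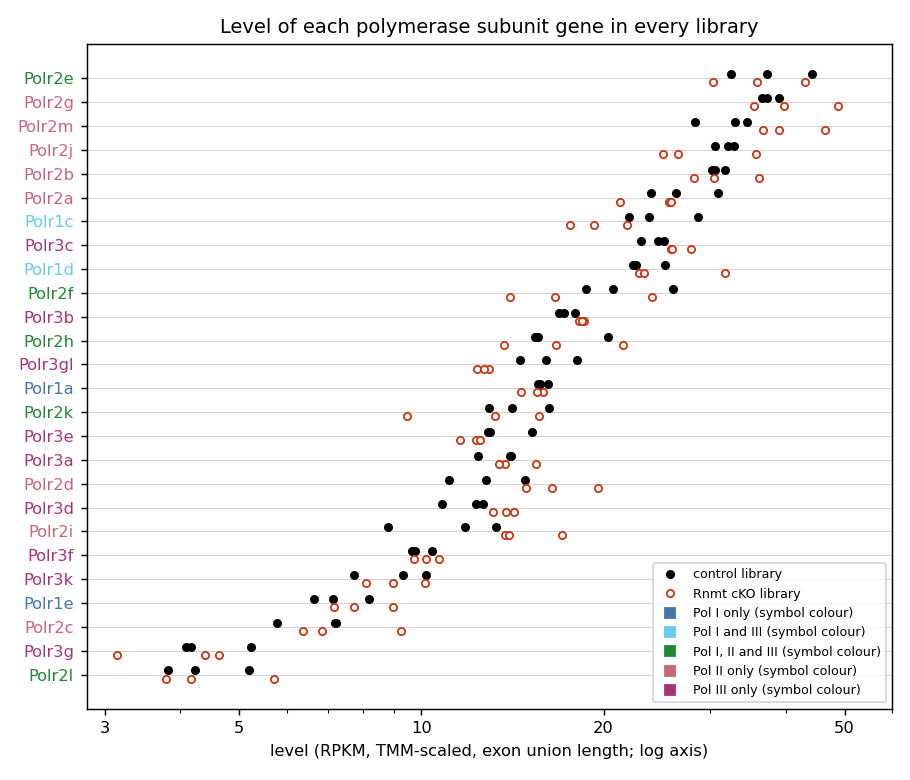
Each row is 1 subunit gene, ordered by its mean control level; the horizontal axis is the level in RPKM on a log scale, filled points are the 3 control libraries and open points the 3 Rnmt cKO libraries, and the colour of the symbol gives the class. The points of the groups lie over each other in most rows, and the 8.60-fold range from Polr2l to Polr2e exceeds any shift between the groups.

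Between Rnmt cKO and control, 1 of the 26 genes passed the test as higher and 0 as lower (edgeR exact test, adjusted p under 0.05 over all 12336 genes). Over all genes tested 8.00% were called higher and 6.84% lower. At an unadjusted p under 0.05, 3 members were higher and 2 lower, 19.2% of the members against 25.0% of all genes. edgeR's quasi-likelihood test and DESeq2 both called 0 members at the same adjusted threshold, with 5 and 4 members at an unadjusted p under 0.05. The groups did not overlap for 9 members (34.6%, against 31.4% of all genes): 6 were higher in every Rnmt cKO library and 3 lower. These shares were near those of the transcriptome as a whole.

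The sizes of the differences were modest. The 26 log2 fold changes ran from -0.36 to 0.40, with a median of 0.04 (all genes, 0.01), and 16 lay above 0 and 10 below. The median size, regardless of sign, was 0.14, and it was 0.17 over all genes and 0.14 over the 8033 genes in the same range of control CPM. A 95% interval for each difference, from the spread of log2 CPM over the 3 and 3 libraries, lay within a 2-fold change either way for 25 of the 26 and within a 1.5-fold change for 13. The interval held 0 for 24, and its half-width ran from 0.08 to 0.74 on the log2 scale, so changes smaller than these could not be seen. Across the members the log2 fold change had a Spearman rho of -0.17 with control RPKM and 0.02 with exon length, as a description across genes.

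**Figure D2:**
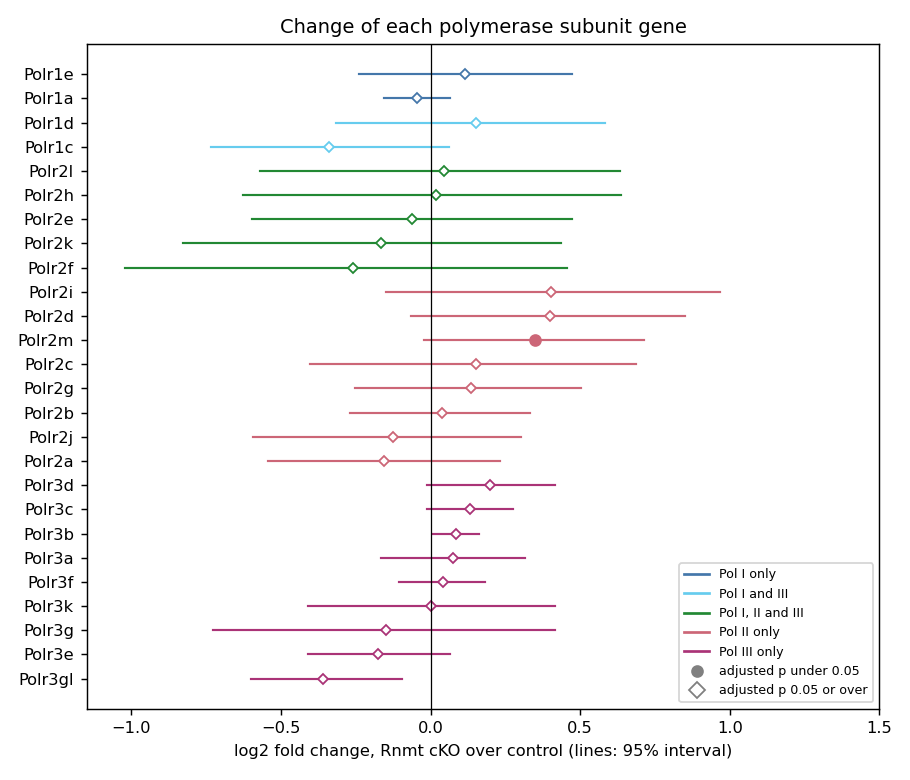
The horizontal axis is the log2 fold change of Rnmt cKO over control for each subunit gene, grouped and coloured by class, and each line is the 95% interval from the spread over 3 and 3 libraries. The filled point, Polr2m at 0.35, is the gene that passed the adjusted threshold; its interval, from -0.02 to 0.71, still holds 0.

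The catalytic subunits, which form the active site of each enzyme, differed little. The largest Pol I subunit, Polr1a (chr6:71909053-71984935 in GRCm38), had 1268, 1441 and 1309 counts in the controls and 1273, 1736 and 1597 in Rnmt cKO. The controls had 146 ± 2.83 CPM and the Rnmt cKO libraries 141 ± 6.16 CPM (log2 fold change -0.04, 95% interval -0.16 to 0.07, adjusted p = 0.84). That interval lies within a 1.5-fold change either way. The sign of this small difference turned with no scaling beyond library size.

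The largest Pol II subunit, Polr2a, which carries the C-terminal repeat domain where the capping enzymes dock, had 1508, 1619 and 1887 counts in the controls and 1360, 2048 and 1941 in Rnmt cKO. In CPM it was 182 ± 23.8 and 164 ± 17.1 and the groups overlapped, with control 3 highest and Rnmt cKO 1 lowest (log2 fold change -0.16, SE 0.14, adjusted p = 0.46). The second largest, Polr2b, had 1064, 1267 and 1190 counts in the controls and 1106, 1497 and 1673 in Rnmt cKO. It was 128 ± 3.34 and 131 ± 17.0 CPM, a log2 fold change of 0.04 (adjusted p = 0.90).

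Of the Pol III catalytic pair, Polr3a had 494, 659 and 596 counts in the controls and 686, 764 and 703 in Rnmt cKO. It was 63.2 ± 4.46 and 66.7 ± 5.11 CPM, and the groups overlapped. Polr3b, its partner, had 760, 840 and 776 counts in the controls and 858, 1095 and 1021 in Rnmt cKO. All 3 Rnmt cKO libraries lay above all 3 controls, at 91.5 ± 0.858 against 86.3 ± 2.8 CPM, but the difference of 0.09 on the log2 scale had an adjusted p of 0.63. Its 95% interval, 0.01 to 0.16, was the narrowest of any member, but it rests only on the spread over 3 and 3 libraries. The exact test, with an unadjusted p of 0.34, does not bear out the exclusion of 0.

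Within Pol II, Polr2m was the member that passed the test. It encodes the subunit also known as Gdown1, which joins a form of Pol II that answers to Mediator, and it lies at chr9:71478437-71485935 on the minus strand, with 5 blocks of exons. Its counts were 680, 838 and 622 in the controls and 895, 1053 and 1254 in Rnmt cKO. In CPM the controls were 79.9, 83.6 and 68.7 and the Rnmt cKO libraries 94.6, 88.8 and 112.4. Every Rnmt cKO library exceeded every control, Rnmt cKO 3 most, and the mean rose from 77.4 ± 7.78 to 98.6 ± 12.3 CPM, 1.27-fold (log2 fold change 0.35, SE 0.13, adjusted p = 0.028, edgeR exact test).

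The call for Polr2m held under 6 of 15 alternatives. It was kept with DESeq2's size factors, with no scaling beyond library size and with a filter on all 6 samples. It was also kept with the share of reads outside exons as a covariate (adjusted p = 0.00077), without control 2 (0.048) and without Rnmt cKO 2 (0.023). It was lost with the quasi-likelihood test (adjusted p = 0.061), DESeq2 (0.074), counts of either strand (0.057), no filter on low counts (0.062) and the replicate block (0.18). It was also lost without control 1 (adjusted p = 0.082), control 3 (0.21), Rnmt cKO 1 (0.060) or Rnmt cKO 3 (0.092), where the log2 fold change was 0.37, 0.27, 0.38 and 0.22. The direction was kept under all 15 alternatives, at 0.22 to 0.47, and the adjusted p fell to 0.00058 at its lowest. Within the 3 libraries with the smaller share of reads outside exons the log2 difference was 0.46 (1 Rnmt cKO against 2 controls), and within the other 3 it was 0.42 (2 against 1).

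Other small Pol II subunits had log2 fold changes of like size with no call. Polr2i, a subunit that acts in transcript proofreading and start site choice, had 108, 113 and 76 counts in the controls and 124, 158 and 182 in Rnmt cKO, or 10.8 ± 2.19 against 14.3 ± 1.79 CPM (log2 fold change 0.40, SE 0.20, adjusted p = 0.17). Polr2d, the stalk subunit, was 13.1 ± 1.89 against 17.2 ± 2.44 CPM (log2 fold change 0.40, SE 0.17, adjusted p = 0.11). In both genes the Rnmt cKO libraries lay above the controls, by a narrow margin between the highest control and the lowest Rnmt cKO library: 12.7 and 13.1 CPM for Polr2i, 15.05 and 15.11 CPM for Polr2d. Both passed the test with the share of reads outside exons as a covariate (adjusted p = 0.023 and 0.012) or with no scaling beyond library size (0.030 and 0.013). The remaining Pol II subunits, Polr2c, Polr2g and Polr2j, overlapped between the groups, with log2 fold changes of 0.15, 0.14 and -0.13.

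**Figure D3:**
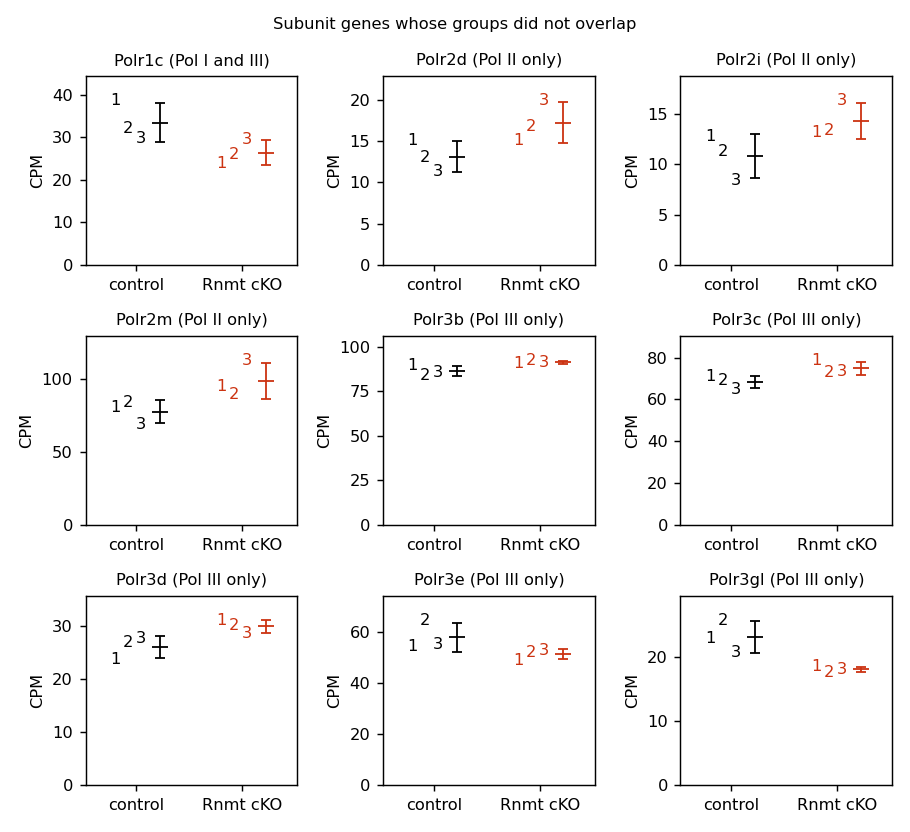
Each panel is a subunit gene whose groups did not overlap, with the level in CPM on an axis from 0; digits mark replicates 1 to 3 of control and Rnmt cKO, and the bars beside them give the mean and SD (n = 3). The margins are narrow in most panels, and Rnmt cKO 3 is the highest of the Rnmt cKO libraries in the 3 Pol II genes.

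Rnmt cKO 3 set much of the Pol II pattern. It was the highest of the 6 libraries for 7 of the 8 Pol II subunits and for 0 of the 9 Pol III subunits. It was the highest for 11 of all 26 members (42.3%) and for 24.1% of all genes tested. The median deviation of the Pol II subunits from their control means was 0.42 on the log2 scale in Rnmt cKO 3, and 0.05 and -0.04 in Rnmt cKO 1 and 2. The median log2 fold change of the class, 0.14 with all libraries, was -0.03 without Rnmt cKO 3. That library was also the one with the smallest share of reads outside exons (31.8%). With that share as a covariate in the quasi-likelihood test the class median was 0.17, against 0.14 without it in the same test. The part of that share in the high values of Rnmt cKO 3 was not tested.

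The 9 Pol III subunits did not follow it. Their median deviation was 0.05, 0.03 and 0.04 in Rnmt cKO 1 to 3, and -0.08, 0.05 and 0.06 in the controls. Their summed level was 120.4 ± 3.74 RPKM in controls and 121 ± 1.66 in Rnmt cKO, and that of the Pol II subunits was 190 ± 5.03 and 206 ± 28.1. Polr3d, which helps the enzyme to end and restart transcription, had 201, 270 and 250 counts in the controls and 294, 357 and 320 in Rnmt cKO. This was the largest positive log2 fold change of the class (0.20; 26.1 ± 2.13 against 30.0 ± 1.2 CPM, adjusted p = 0.31), and the groups did not overlap. Polr3c, in the subcomplex that opens the promoter, was 68.3 ± 3.03 against 74.9 ± 3.26 CPM without overlap (log2 fold change 0.13, adjusted p = 0.42). Polr3e, the partner of Polr3d, was 58.0 ± 5.66 in controls and 51.4 ± 2.04 CPM in Rnmt cKO, also without overlap (log2 fold change -0.18, adjusted p = 0.32). Polr3f and Polr3k had log2 fold changes of 0.04 and 0.00065, and their groups overlapped.

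The alternative subunits Polr3g and Polr3gl fill the same place in Pol III, giving 2 forms of the enzyme; Polr3g is known from stem cells and proliferating cells and Polr3gl from most tissues. In these naïve cells Polr3gl was the more abundant form, and Polr3g made up 21.8 ± 4.14% of their summed RPKM in controls and 24.1 ± 3.71% in Rnmt cKO (SD, n = 3). Polr3g had 121, 140 and 162 counts in the controls and 150, 178 and 120 in Rnmt cKO, and its groups overlapped (15.4 ± 2.19 and 13.9 ± 2.73 CPM, adjusted p = 0.72). The summed level of the 15 cell division genes was higher in every Rnmt cKO library, and that of Polr3g was not. The 95% interval of Polr3g was wide, from -0.73 to 0.42, and a relation between these levels was not tested.

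Polr3gl had 195, 258 and 188 counts in the controls and 175, 209 and 202 in Rnmt cKO. In CPM the controls were 22.9, 25.8 and 20.8 and the Rnmt cKO libraries 18.5, 17.6 and 18.1. All 3 Rnmt cKO libraries lay below the controls and close together, at a mean of 18.1 ± 0.431 against 23.2 ± 2.5 CPM, the lowest log2 fold change of all members (-0.36, SE 0.091, 95% interval -0.60 to -0.10, adjusted p = 0.058). It missed the threshold in the exact test. It passed with DESeq2's size factors (adjusted p = 0.048), with the share of reads outside exons as a covariate (0.024), without control 3 (0.036) and without Rnmt cKO 3 (0.044). The direction was kept under all 15 alternatives, from -0.43 to -0.24.

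The subunits shared by Pol I and Pol III, Polr1c and Polr1d, pair with each other in the assembly core of both enzymes. Polr1c had 329, 321 and 269 counts in the controls and 225, 308 and 329 in Rnmt cKO, or 33.5 ± 4.65 against 26.4 ± 2.88 CPM, and its groups did not overlap (log2 fold change -0.34, SE 0.14, adjusted p = 0.089). The gap was narrow: 29.7 CPM in control 3 and 29.5 in Rnmt cKO 3. Polr1d had 477, 498 and 455 counts in the controls and 481, 613 and 786 in Rnmt cKO, or 52.0 ± 3.53 and 57.7 ± 11.1 CPM (log2 fold change 0.15, adjusted p = 0.57).

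The ratio of Polr1c to Polr1d, in RPKM, was 1.14, 1.06 and 0.973 in the controls and 0.770, 0.827 and 0.689 in Rnmt cKO. Of the 5 ratios between single subunit genes that were computed, this was the one in which the groups did not overlap, and it is given as a description. Polr1c was among the members that passed the test without Rnmt cKO 3 (log2 fold change -0.44, adjusted p = 0.0094) and with the covariate (-0.31, adjusted p = 0.021).

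Of the subunits found only in Pol I, Polr1e, which acts in initiation and elongation on ribosomal DNA, had 195, 283 and 223 counts in the controls and 252, 293 and 345 in Rnmt cKO. The groups overlapped at 25.3 ± 2.72 and 27.4 ± 3.18 CPM (log2 fold change 0.12, adjusted p = 0.69). The 2 genes together summed to 171 ± 1.63 CPM in controls and 169 ± 6.78 in Rnmt cKO. Relative to the Pol II subunits their summed RPKM was 0.122 ± 0.00512 in controls and 0.114 ± 0.00971 in Rnmt cKO, and the groups overlapped. The sums hold 2 genes against 8, and Pol I subunits under other symbols are left out. The ratio therefore compares the groups and not the amounts of the 2 enzymes.

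The 5 subunits common to all 3 enzymes overlapped between the groups without exception, with log2 fold changes from -0.26 to 0.05. Polr2f, which helps hold the largest subunit in the complex, had 196, 184 and 150 counts in the controls and 139, 147 and 237 in Rnmt cKO, or 19.3 ± 3.34 and 16.1 ± 4.59 CPM (log2 fold change -0.26, adjusted p = 0.49). Polr2l had 73, 70 and 57 counts in the controls and 65, 74 and 105 in Rnmt cKO (log2 fold change 0.05, adjusted p = 0.96). Reads on its opposite strand, which the strand counts used here leave out, were 12.3% of the counts of both strands together in controls and 11.9% in Rnmt cKO. Polr2e, Polr2h and Polr2k had log2 fold changes of -0.06, 0.02 and -0.17. Polr2k has an annotated processed pseudogene, so the assignment of its reads, 56 to 109 per library, is uncertain.

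These common subunits varied more between libraries of a group than between the groups. Their median deviation from the control means was 0.24, -0.06 and -0.19 in the controls and -0.07, -0.31 and 0.19 in Rnmt cKO. The highest values were those of control 1 and Rnmt cKO 3, which had the smallest shares of reads outside exons (36.1 and 31.8%). For 3 of the 5 genes, Polr2e, Polr2f and Polr2l, all 3 libraries with the smaller share lay above the other 3. The Pol II subunit Polr2c had the same order, so it held for 4 of the 26 members, against 8.57% of all genes. Polr3g was the one member with the opposite order (10.9% of all genes). Without Rnmt cKO 3, Polr2f was called lower (log2 fold change -0.53, adjusted p = 0.017), as was Polr2j (-0.32, adjusted p = 0.029). Neither was called with all libraries.

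**Figure D4:**
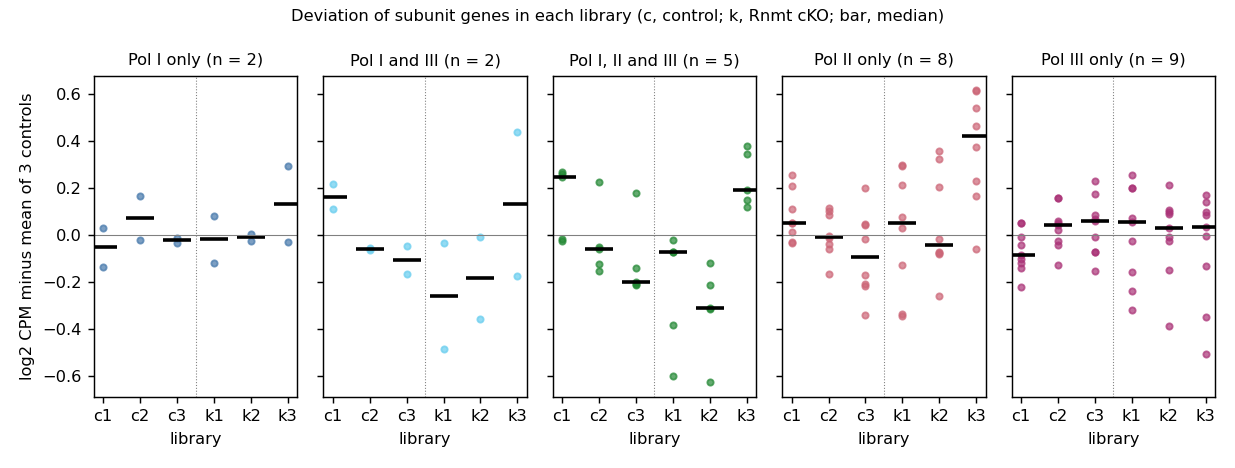
Each panel is a class of subunit genes and each point 1 gene's log2 CPM minus its mean over the 3 controls, by library (c1 to c3, control; k1 to k3, Rnmt cKO); the black bars are medians over the class. The Pol II subunits lie highest in Rnmt cKO 3 (median 0.42), the common subunits are high in control 1 and Rnmt cKO 3 (0.24 and 0.19), and the medians of the Pol III subunits stay between -0.08 and 0.06.

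The other genes of transcription by these enzymes were taken from a list of 82 genes, all of which could be tested. Here 4 passed as higher and 1 as lower, against 8.00% and 6.84% of all genes, and the median log2 fold change was 0.06. The subunits that carry other symbols (Cd3eap, Znrd1, Twistnb and Crcp) had log2 fold changes of 0.28, 0.07, -0.07 and 0.0055 with no call.

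Taf1d, which encodes a subunit of the selectivity factor that brings Pol I to ribosomal DNA, fell. It had 615, 807 and 674 counts in the controls and 468, 686 and 598 in Rnmt cKO, or 75.8 ± 4.28 against 53.6 ± 4.21 CPM, without overlap (log2 fold change -0.50, SE 0.080, adjusted p = 3.8e-05). It passed under all 15 alternatives, with an adjusted p of at most 0.019. It was the 1 of 8 Pol I initiation and elongation genes to pass; the other 7 did not, and the summed level of the 8 was 575 ± 8.79 and 569 ± 17.3 CPM.

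Of 24 factors of Pol II pausing, elongation and C-terminal domain handling, 3 passed as higher and 0 as lower. Over all genes tested, 8.00% were called higher and 6.84% lower. The groups did not overlap for 8 of the 24 (33.3%, against 31.4% of all genes), near the share of the transcriptome as a whole. Cdk9, the kinase of the elongation factor P-TEFb, was 41.4 ± 4.58 and 52.9 ± 1.72 CPM (log2 fold change 0.35, adjusted p = 0.016). Rtf1, of the elongation complex that carries the name of Paf1, was 83.1 ± 6.95 and 105.6 ± 3.17 CPM (0.35, adjusted p = 0.0048). Nelfcd, a subunit of the pausing factor NELF, was 30.2 ± 3.31 and 38.0 ± 1.33 CPM (0.33, adjusted p = 0.042). The summed level of the 24 genes was 2101 ± 28.6 CPM in controls and 2254 ± 13.8 in Rnmt cKO, higher in all 3 Rnmt cKO libraries, with 18 log2 fold changes above 0 and 6 below and a median of 0.08. Of 15 alternatives Rtf1 passed under 11, Cdk9 under 9 and Nelfcd under 5. All 3 were lost with the replicate block (adjusted p = 0.078 for Rtf1, 0.10 for Cdk9 and 0.16 for Nelfcd), and each without any 1 of several libraries: control 1, control 2 or Rnmt cKO 2 for Rtf1, these and Rnmt cKO 1 for Cdk9, and control 1, control 3, Rnmt cKO 1 or Rnmt cKO 2 for Nelfcd.

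Of 16 genes of Pol III initiation and repression 1 rose. Snapc2, a subunit of the complex that binds the promoters of small nuclear RNA genes read by Pol II or Pol III, had 104, 114 and 69 counts in the controls and 150, 173 and 225 in Rnmt cKO. It was 10.4 ± 2.45 against 16.9 ± 2.92 CPM (log2 fold change 0.70, SE 0.25, adjusted p = 0.0092). The call held under 13 of 15 alternatives and was lost without control 3 (adjusted p = 0.093) and with the replicate block (0.13). None of the 17 general transcription factors of Pol II, the 10 polymerase assembly factors and the 3 genes of the mitochondrial RNA polymerase passed the exact test, and 0 of these had an unadjusted p under 0.05.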

How the data were processed

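Naïve CD4 T cell RNA from 3 control and 3 Rnmt cKO samples was analysed. Per the labels, the authors aligned the reads to mm10 with STAR 2.5.2b, whose deposited tables give counts of uniquely mapped reads per gene for either strand and for each strand. The authors also deposited a gene comparison table with a normalised signal per library, fold changes and p-values. It served to list gene symbols, and its signal to find the strand column: the column of the transcript's strand matched it in 100% of 11221 genes, within 1 per mille. Its fold changes and p-values were not used.

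The members and lists were chosen with earlier results of these data known. Genes over 1 CPM in at least 3 samples (12336) were scaled by TMM and compared with edgeR's exact test (edgeR 4.0.16, R 4.3.3), as in the study's methods, with Benjamini-Hochberg adjustment over all genes tested and a threshold of 0.05. The steps were tested on simulated data. Intervals (95%) came from log2 CPM with a prior count of 2 and 4 residual degrees of freedom. RPKM used the union of a gene's annotated exons in GRCm38. Counts in every library are given for members past the threshold, the catalytic pairs, Polr1c, Polr1d, Polr3g, Polr3gl and the lowest and highest log2 fold change of each class, and pathway genes are named where they passed. Other genes were named after their values were seen. 2 genes with a matching symbol are not reported here. Within groups, library pairs differed by 3.79 to 25.4 times the sampling variance, so no library was a copy. The labels do not say whether samples came from separate animals, so p-values measure only the spread between these samples. Alternatives were DESeq2 1.42.0, the quasi-likelihood test, other scalings and filters, and either-strand counts. Further ones were a covariate for the share of reads outside exons, a replicate block and leaving out each library.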

Additional observations from a re-analysis of the deposited data

How the results depend on the processing

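The number of members called higher was 1 with the exact test. It was 3 with no scaling beyond library size and 3 with the share of reads outside exons as a covariate (Polr2d, Polr2i and Polr2m). It was 0 with no filter on low counts, the quasi-likelihood test, DESeq2's Wald test, counts of either strand and the quasi-likelihood fit with a replicate block. It ran from 0 to 1 when each library was left out. The number called lower, 0 with the exact test, was 1 with DESeq2 size factors (Polr3gl) and 2 with the covariate (Polr1c and Polr3gl), and ran from 0 to 4 when each library was left out; the 4, without Rnmt cKO 3, were Polr1c, Polr2f, Polr2j and Polr3gl. With no scaling the median log2 fold change was 0.16 for all members, 0.16 for the Pol I subunits and 0.16 for the Pol III subunits, against 0.14 for all genes, so these medians moved with the scaling of all genes, and Polr1a turned to 0.080. When each library was left out, the median ran from -0.034 to 0.24 for the Pol II subunits and from 0.0046 to 0.080 for the Pol III subunits. With the longest transcript as gene length the median control level was 12.1 RPKM for the Pol I subunits and 34.5 for the pair shared by Pol I and Pol III. Replicate numbers did not pair the samples: same-numbered samples correlated at -0.21, -0.02 and -0.35 in their deviations, and calls over all genes fell to 431 higher and 276 lower with the replicate block, from 793 and 636 without it in the same test. Where another setting ended a call, the cause was not tested. The widest interval, with a half-width of 0.74 on the log2 scale, was that of Polr2f, with 139 to 237 counts per library: changes within it could not be seen.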
